A study of Mus musculus with 6 samples.

Results

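The TCA cycle and the oxidation of branched-chain amino acids (BCAA) were followed in mouse cardiomyocyte (CM) nuclei through 34 genes, 17 for each pathway. The members were taken by name, as rows of the count table whose Ensembl identifier carries a listed symbol in the GENCODE M21 annotation, out of 54532 genes in the table. The TCA list holds 13 enzymes of the cycle, without succinate dehydrogenase, and 4 genes of anaplerosis and the malate-aspartate shuttle. The BCAA list holds 5 genes of transamination, the branched-chain ketoacid dehydrogenase (BCKDH) complex and its kinase, 4 genes of the leucine branch, 5 of the valine and isoleucine branches and 3 of the propionyl-CoA branch.

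Wild-type ICR mice were injected under the skin at P6 (postnatal day 6) with 1e+11 viral genomes of AAV9, and their hearts were taken at P9, 3 d later. The virus carried GFP, YAP6SA or YAP5SA behind the cardiac troponin T (cTnT) regulatory element, which is active in CMs, so the control hearts also received a virus. YAP is the transcriptional co-activator that the Hippo kinases restrain, YAP5SA is a form whose Hippo-regulated serines were replaced by alanine, and YAP6SA carries a further serine-to-alanine change that disrupts its binding to TEAD transcription factors. Nuclei were captured with an antibody to PCM-1, a marker of CM nuclei, and their poly-A RNA was sequenced. The 3 groups had 2 libraries apiece, and both batches held 1 library of every group. The labels speak of 2 hearts for each virus but do not say that a library is 1 heart, so the p-values measure the spread between these libraries.

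The TCA cycle oxidises acetyl-CoA in the mitochondrial matrix and passes the electrons to the respiratory chain as NADH and FADH2. Aspartate aminotransferases and malate dehydrogenases on both sides of the inner mitochondrial membrane form the malate-aspartate shuttle, which brings cytosolic reducing equivalents into the matrix. Leucine, valine and isoleucine lose their amino group to BCAT and their carboxyl group to the BCKDH complex, and separate branches then take leucine to acetyl-CoA and acetoacetate, and valine and isoleucine to propionyl-CoA (isoleucine also to acetyl-CoA), which enters the cycle as succinyl-CoA. The heart gains capacity for oxidative metabolism in the days after birth, and BCAA oxidation is an active pathway in the adult heart.

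The libraries held 14552847 to 19615627 gene counts. The 10 CM markers, such as *Myh6* and *Tnnt2*, were all measured, and their summed level was 59600 and 79500 CPM (counts per 1000000 counts of the library, after scaling) in GFP CMs, 55600 and 72800 in YAP6SA CMs, and 48600 and 35400 in YAP5SA CMs. The YAP5SA sums lay below all others. By the test used for the members, 2 of the 10 were lower than in GFP CMs and 1, *Nppa*, was higher. Of all genes tested 9.18% were lower and 12.8% higher in this comparison. The log2 fold change was 1.18 for *Nppa* and below 0 for every other CM marker, from -0.13 for *Myl2* to -1.04 for *Myh6* and *Pln*. Fibroblast, endothelial, macrophage and mural markers were present in all groups, with sums of 860 to 1370, 479 to 612, 56.9 to 82.5 and 512 to 574 CPM in GFP CMs, and of 906 to 1500, 494 to 631, 82.0 to 117 and 353 to 450 CPM in YAP5SA CMs. Most of the mural sum in GFP CMs, and its fall in YAP5SA CMs, came from *Abcc9*. This gene went from 272 and 387 CPM in GFP to 216 and 156 in YAP5SA CMs (log2 fold change -0.81, FDR = 0.0287). *Myh11* rose from 14.2 and 6.07 to 21.3 and 16.5 CPM (1.00, FDR = 0.0274). The rest of the mural list ran from -0.25 (*Kcnj8*) to 0.70 (*Rgs5*), none past the threshold. The 13 mRNAs of the mitochondrial genome summed to 12000 and 12400 CPM in GFP, 18200 and 23600 in YAP6SA and 19800 and 27100 in YAP5SA CMs. Only 10 of them had levels high enough to be tested, and all 10 rose in YAP5SA CMs against GFP. The part of these shifts in the results that follow was not tested. Mouse *Yap1* stood at 139 and 130 CPM in GFP, 122 and 130 in YAP6SA and 138 and 102 in YAP5SA CMs, which does not check the labels, because it is not stated whether reads of the viral construct count towards this gene.

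All 34 members passed the filter on low values (a group median above 2 CPM, log2 CPM of 1) and were measured in every library. Per kb of exons, the 14 highest mean levels in GFP CMs belonged to TCA members, although single BCAA members exceeded *Got2*, the last of the 14, within each library. *Idh2*, the NADP-dependent isocitrate dehydrogenase, led with 252 CPM per kb, followed by the cytosolic malate dehydrogenase *Mdh1* with 215, *Ogdh*, the dehydrogenase subunit of the 2-oxoglutarate dehydrogenase complex, with 156, *Idh3g*, a subunit of the NAD-dependent isocitrate dehydrogenase, with 123, and *Dlst*, the succinyltransferase subunit of the same complex as *Ogdh*, with 103 CPM per kb. The remaining 3 TCA members were *Suclg1* at 14.5, *Suclg2* at 3.48 and pyruvate carboxylase *Pcx* at 1.72 CPM per kb. The highest BCAA members were *Acad8*, the isobutyryl-CoA dehydrogenase, at 26.4, the methylmalonyl-CoA epimerase *Mcee* at 24.8 and *Pccb* at 24.4 CPM per kb, whose ranges over the 2 GFP libraries overlap. The lowest was *Pcca*, the alpha subunit of the same propionyl-CoA carboxylase as *Pccb*, at 0.975 CPM per kb.

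**Figure D1:**
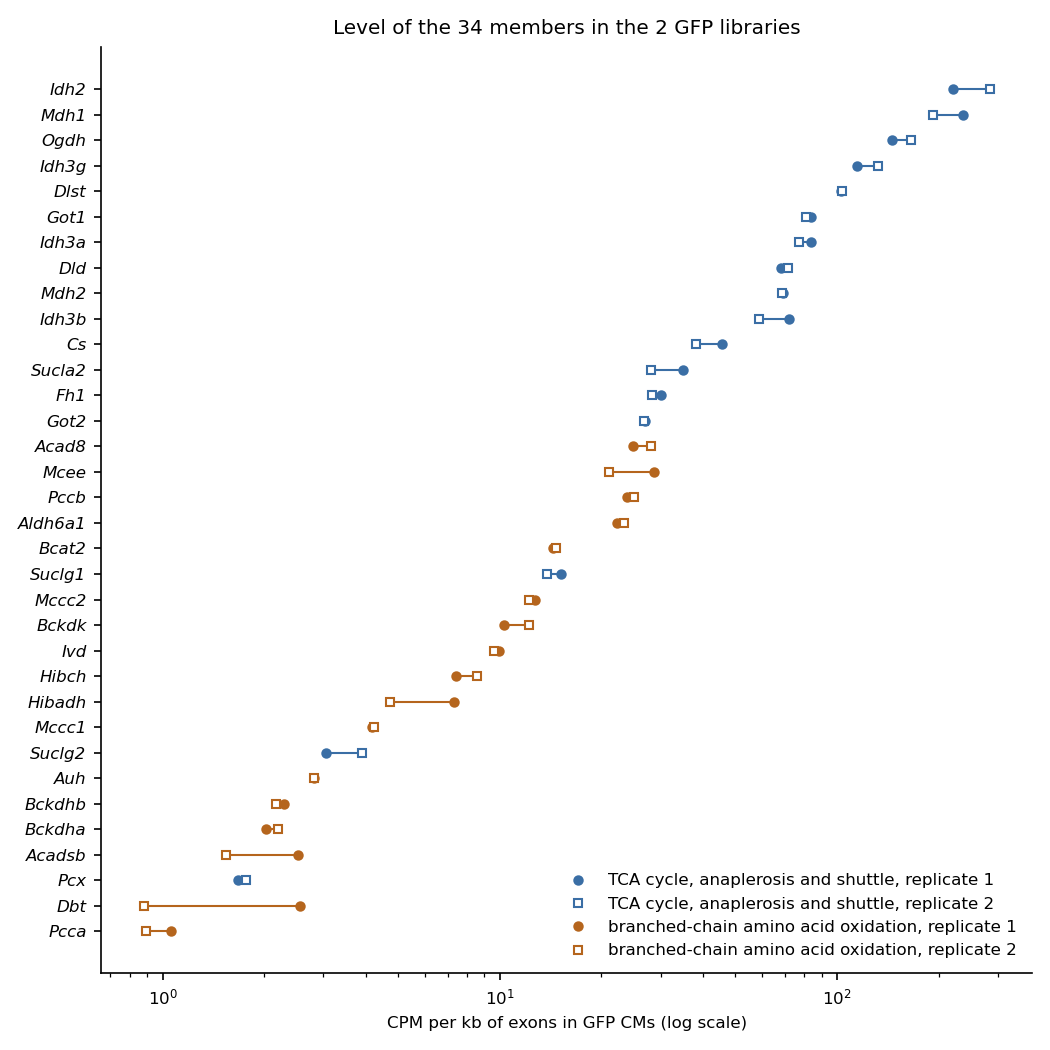
Level of each of the 34 members in GFP CMs in CPM per kb of exons (log scale), with 1 symbol for each of the 2 libraries and a line joining them, blue for TCA and brown for BCAA members. TCA members fill the upper 14 places by the mean, and *Dbt* shows the widest gap between the libraries, from 8.57 to 2.94 CPM before division by length.

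In YAP6SA CMs no member changed at an FDR of 0.05 (edgeR's quasi-likelihood test, Benjamini-Hochberg adjustment over 13323 genes), where 0.0450% of all genes tested rose and 0.00% fell. At an unadjusted p of 0.05, 1 TCA member was higher and 1 BCAA member was lower, and no other member passed, while 3.86% of all genes were higher and 2.07% lower at that level. The likelihood ratio test, DESeq2 and limma-voom also called 0 members. The median log2 fold change was 0.11 for the TCA members, with 12 of 17 above 0, and -0.12 for the BCAA members, with 10 of 17 below 0, beside 0 for all genes. Both directions turned when 1 library was left out, to a TCA median of -0.01 without GFP replicate 1 and a BCAA median of 0.07 without YAP6SA replicate 1. The TCA median was 0.18 within batch 1 and 0.04 within batch 2. The BCAA median was -0.15 within batch 1 and 0 within batch 2.

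*Idh3b*, a subunit of the NAD-dependent isocitrate dehydrogenase, had 247 and 201 CPM in GFP, 319 and 299 in YAP6SA, and 275 and 189 in YAP5SA CMs. Both YAP6SA libraries lay above both GFP libraries, and the YAP5SA libraries overlapped GFP. The log2 fold change in YAP6SA CMs was 0.47 ± 0.16 (SE; edgeR, unadjusted p = 0.0164, FDR = 0.706). *Mccc1*, the biotin-carrying subunit of methylcrotonyl-CoA carboxylase in leucine breakdown, had 45.9 and 46.3 CPM in GFP and 30.9 in each YAP6SA library. The groups did not overlap, with a log2 fold change of -0.58 ± 0.21 (edgeR, unadjusted p = 0.0215, FDR = 0.709). *Got2*, the mitochondrial aspartate aminotransferase, had 130 and 129 CPM in GFP and 163 and 150 in YAP6SA CMs, a log2 fold change of 0.27 ± 0.15 (edgeR, unadjusted p = 0.0981, FDR = 0.864). Fitting the 4 libraries of GFP and YAP6SA CMs alone put *Idh3b* (FDR = 0.0430) and *Mccc1* (FDR = 0.0443) past the threshold. Over all genes that fit called 198 higher and 78 lower, in place of 6 and 0. For the other members the 95% intervals reached from a log2 fold change of -1.46 (*Bckdha*) to 1.28 (*Bckdhb*) at their widest, so changes of that size were not detectable for the least abundant members.

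In YAP5SA CMs 4 TCA members fell against GFP and none rose. Of all genes tested 9.18% fell and 12.8% rose in this comparison. The 4 were *Ogdh*, *Dlst*, *Sucla2* and *Got1*, the cytosolic aspartate aminotransferase. The median log2 fold change of the 17 TCA members was -0.35, with 16 of 17 below 0, and was -0.19 within batch 1 and -0.56 within batch 2. In a bulk measurement such as this, fewer cells of a type and less RNA per cell cannot be told apart.

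*Got1* (ENSMUSG00000025190, GRCm38 chr19:43499752-43524605, minus strand) had 212 and 206 CPM in GFP, 201 and 172 in YAP6SA, and 122 and 76.6 in YAP5SA CMs. The YAP5SA libraries lay below all 4 others. The log2 fold change against GFP was -1.11 ± 0.18 (FDR = 0.00290), a level of 0.465 of GFP, and against YAP6SA it was -0.93 ± 0.18 (FDR = 0.00887). The difference from GFP was -0.79 in batch 1 and -1.42 in batch 2 on the log2 scale.

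*Ogdh* (ENSMUSG00000020456, chr11:6291633-6356642, plus strand) had 793 and 905 CPM in GFP, 926 and 750 in YAP6SA, and 535 and 378 in YAP5SA CMs. GFP and YAP6SA libraries overlapped, and both YAP5SA libraries lay below them. The log2 fold change was -0.92 ± 0.20 against GFP (FDR = 0.0121) and -0.88 ± 0.20 against YAP6SA (FDR = 0.0187). *Dlst* (ENSMUSG00000004789, chr12:85110833-85134845, plus strand) had 985 and 986 CPM in GFP, 911 and 864 in YAP6SA, and 739 and 591 in YAP5SA CMs. The 3 groups did not overlap, and *Dlst* passed the test against GFP (-0.57 ± 0.18, FDR = 0.0451) but not against YAP6SA (-0.42 ± 0.18, FDR = 0.141). The third subunit of this complex, the dihydrolipoamide dehydrogenase *Dld*, which other dehydrogenase complexes share, had a log2 fold change of -0.38 ± 0.16 against GFP (FDR = 0.126).

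Succinyl-CoA synthetase joins the alpha subunit *Suclg1* with either the ADP-specific beta subunit *Sucla2* or the GDP-specific *Suclg2*. *Sucla2* (ENSMUSG00000022110, chr14:73525319-73596142, plus strand) had 139 and 112 CPM in GFP, 133 and 120 in YAP6SA, and 97.2 and 71.6 in YAP5SA CMs. Both YAP5SA libraries lay below all others, with log2 fold changes of -0.58 ± 0.15 against GFP (FDR = 0.0205) and -0.60 ± 0.15 against YAP6SA (FDR = 0.0247). *Suclg2* was far lower in all groups, at 3.48 against 31.5 CPM per kb for *Sucla2* in GFP CMs, and its log2 fold change in YAP5SA CMs was -0.14 (95% interval -0.62 to 0.35, FDR = 0.690). The difference between the fold changes of the 2 beta subunits was not tested.

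The other cycle enzymes did not pass against GFP in YAP5SA CMs. The NAD-dependent isocitrate dehydrogenase subunit *Idh3a* came closest, with a log2 fold change of -0.54 ± 0.18 (FDR = 0.0530). *Idh3b* stood at 0.04, *Idh3g* at -0.35, *Idh2* at -0.30 and the citrate synthase *Cs* at -0.20 on this scale. The fumarase *Fh1* stood at -0.29 and *Suclg1* at -0.14. *Pcx*, listed under anaplerosis, stood at -0.03 and did not pass either.

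Against YAP6SA, 6 TCA members fell in YAP5SA CMs and none rose, where 5.68% of all genes fell and 14.7% changed in either direction. These were *Ogdh*, *Sucla2*, *Got1*, *Got2*, *Mdh1* and the mitochondrial malate dehydrogenase *Mdh2*, so all 4 enzymes of the malate-aspartate shuttle were among them, a grouping made after their values were seen. The median log2 fold change was -0.44, with 16 of 17 members below 0, and was -0.36 within batch 1 and -0.57 within batch 2. These 2 comparisons share the YAP5SA libraries, as those against GFP share the GFP libraries.

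*Mdh1* (ENSMUSG00000020321, chr11:21556787-21572367, minus strand) had 606 and 495 CPM in GFP, 677 and 574 in YAP6SA, and 510 and 305 in YAP5SA CMs. The YAP5SA libraries overlapped GFP but lay below both YAP6SA libraries, with a log2 fold change of -0.65 ± 0.18 against YAP6SA (FDR = 0.0404) and -0.47 ± 0.18 against GFP (FDR = 0.0960). *Mdh2* (ENSMUSG00000019179, chr5:135778480-135790398, plus strand) had 247 and 244 CPM in GFP, 282 and 255 in YAP6SA, and 196 and 183 in YAP5SA CMs, in 3 ranges that did not overlap. Its log2 fold change was -0.50 ± 0.15 against YAP6SA (FDR = 0.0490) and -0.37 ± 0.15 against GFP (FDR = 0.0989). *Got2* (ENSMUSG00000031672, chr8:95864134-95888547, minus strand) had 114 and 91.2 CPM in YAP5SA CMs, below its GFP and YAP6SA values given above. Its log2 fold change was -0.61 ± 0.15 against YAP6SA (FDR = 0.0236) and -0.34 ± 0.15 against GFP (FDR = 0.128).

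**Figure D2:**
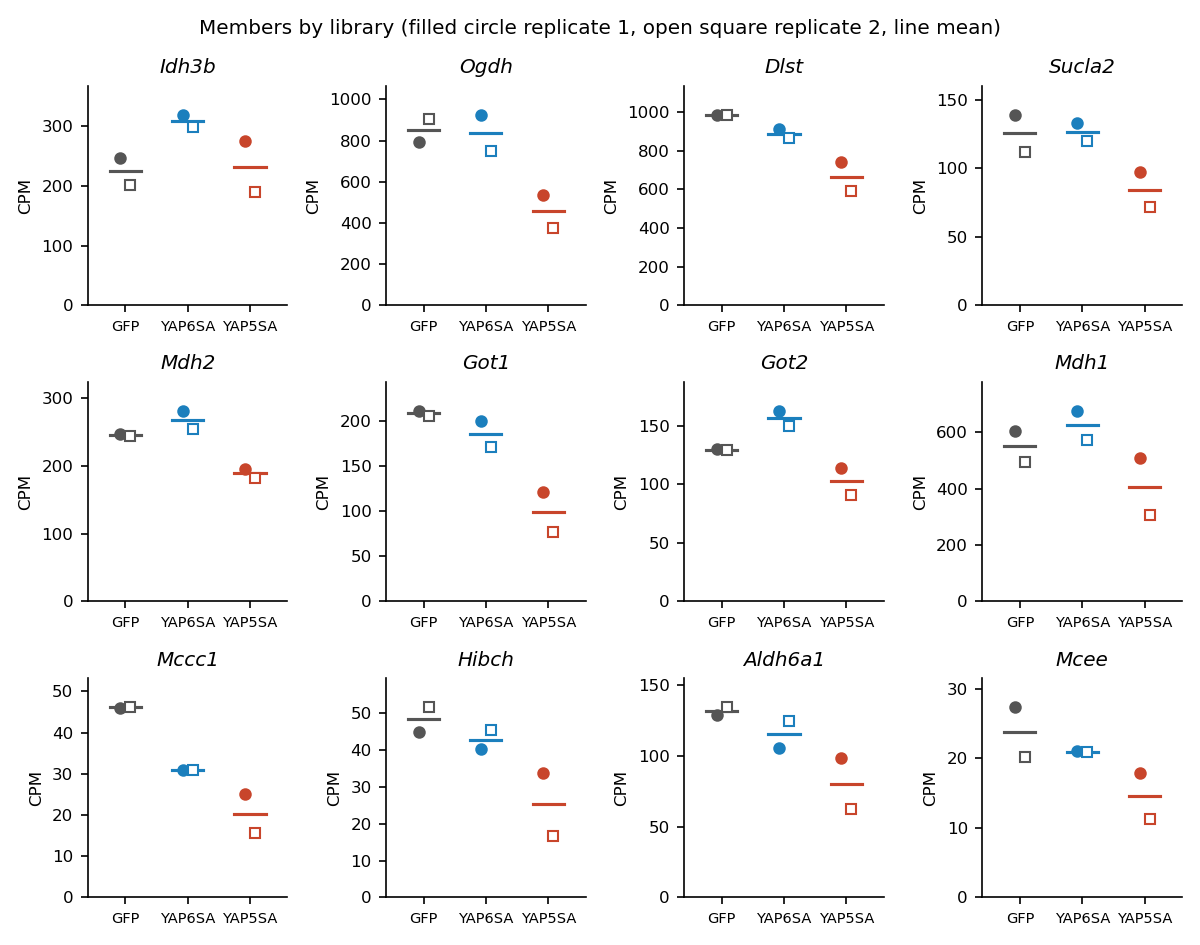
CPM of the 12 members that passed the test in a comparison or had 1 of the 3 smallest p-values in YAP6SA against GFP, by group, with a filled circle for replicate 1, an open square for replicate 2 and a line for the mean (each axis starts at 0). In YAP5SA CMs replicate 2 lies below replicate 1 for each of these 12 genes, and *Got1* runs from 212 CPM in GFP to 76.6 CPM in YAP5SA.

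In YAP5SA CMs 4 BCAA members fell against GFP and none rose, where 9.18% of all genes fell and 12.8% rose. All 4 lie after the BCKDH step, as most of the list does. They were *Mccc1* in the leucine branch, the 3-hydroxyisobutyryl-CoA hydrolase *Hibch* and the methylmalonate semialdehyde dehydrogenase *Aldh6a1* in the valine branch, and *Mcee* in the propionyl-CoA branch. The median log2 fold change of the 17 BCAA members was -0.29, with 13 of 17 below 0, and was -0.26 within batch 1 and -0.28 within batch 2. Against YAP6SA no BCAA member passed the edgeR test, while 5 were lower and 1 higher at an unadjusted p of 0.05, as were 14.5% and 16.4% of all genes, and the likelihood ratio test called 1, DESeq2 and limma-voom 0.

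*Mccc1* (ENSMUSG00000027709, chr3:35959312-36000678, minus strand) had 25.1 and 15.6 CPM in YAP5SA CMs, against 45.9 and 46.3 in GFP and 30.9 in each YAP6SA library. The 3 groups did not overlap, and YAP6SA CMs lay between the others. The log2 fold change was -1.21 ± 0.22 against GFP (FDR = 0.00503), a level of 0.434 of GFP, and -0.63 ± 0.22 against YAP6SA (FDR = 0.0809). Its partner subunit *Mccc2* had a log2 fold change of -0.29 ± 0.20 against GFP (FDR = 0.325), the isovaleryl-CoA dehydrogenase *Ivd* of -0.42 ± 0.16 (FDR = 0.0808), and the methylglutaconyl-CoA hydratase *Auh* of -0.30 ± 0.21 (FDR = 0.341).

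*Hibch* (ENSMUSG00000041426, chr1:52844929-52920986, plus strand) had 44.8 and 51.7 CPM in GFP, 40.1 and 45.3 in YAP6SA, and 33.7 and 16.7 in YAP5SA CMs. The YAP5SA libraries lay below the others but far apart from each other, and the log2 difference from GFP was -0.41 in batch 1 and -1.60 in batch 2. The fit gave -0.98 ± 0.28 against GFP (FDR = 0.0321) and -0.80 ± 0.28 against YAP6SA (FDR = 0.0817). *Aldh6a1* (ENSMUSG00000021238, chr12:84430717-84451004, minus strand) had 129 and 135 CPM in GFP, 106 and 125 in YAP6SA, and 98.9 and 62.3 in YAP5SA CMs. Its 3 ranges did not overlap, and the log2 fold change against GFP was -0.72 ± 0.21 (FDR = 0.0345). *Aldh6a1* shares 18.6% of its exonic bases with *Bbof1* on the opposite strand, and the libraries do not keep strand.

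*Mcee* (ENSMUSG00000033429, chr7:64392607-64412125, plus strand) had 27.4 and 20.1 CPM in GFP, 21.0 and 20.9 in YAP6SA, and 17.8 and 11.2 in YAP5SA CMs. YAP5SA lay below both other groups, with a log2 fold change against GFP of -0.73 ± 0.23 (FDR = 0.0471). The propionyl-CoA carboxylase subunits beside it, *Pcca* and *Pccb*, had log2 fold changes of -0.01 and -0.02. *Acad8*, *Acadsb*, the short branched-chain acyl-CoA dehydrogenase, and the 3-hydroxyisobutyrate dehydrogenase *Hibadh* had -0.08, 0.18 and -0.27, none of them past the threshold.

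At the entry of the pathway no member passed. The mitochondrial aminotransferase *Bcat2* had 56.0 and 57.3 CPM in GFP, 45.2 and 59.8 in YAP6SA, and 71.5 and 71.9 in YAP5SA CMs. Both YAP5SA libraries lay above all 4 others, with log2 fold changes of 0.34 ± 0.16 against GFP (FDR = 0.161) and 0.46 ± 0.16 against YAP6SA (FDR = 0.0880). The BCKDH kinase *Bckdk*, which switches the complex off, had a log2 fold change of 0.03 against GFP (95% interval -0.33 to 0.39). The BCKDH subunits were measured at low depth, with 32 to 73 counts a library for *Bckdha*, 57 to 155 for *Bckdhb* and 45 to 163 for *Dbt*. Their 95% intervals against GFP ran from -1.50 to 0.37, from -0.63 to 1.19 and from -1.43 to 0.40. A fall as large as that of *Hibch* lies inside the intervals of *Bckdha* and *Dbt* and outside that of *Bckdhb*. *Bckdha* shares 61.7% of its exonic bases with *B3gnt8* on the opposite strand, and reads that fall in both genes were left out of the counts.

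**Figure D3:**
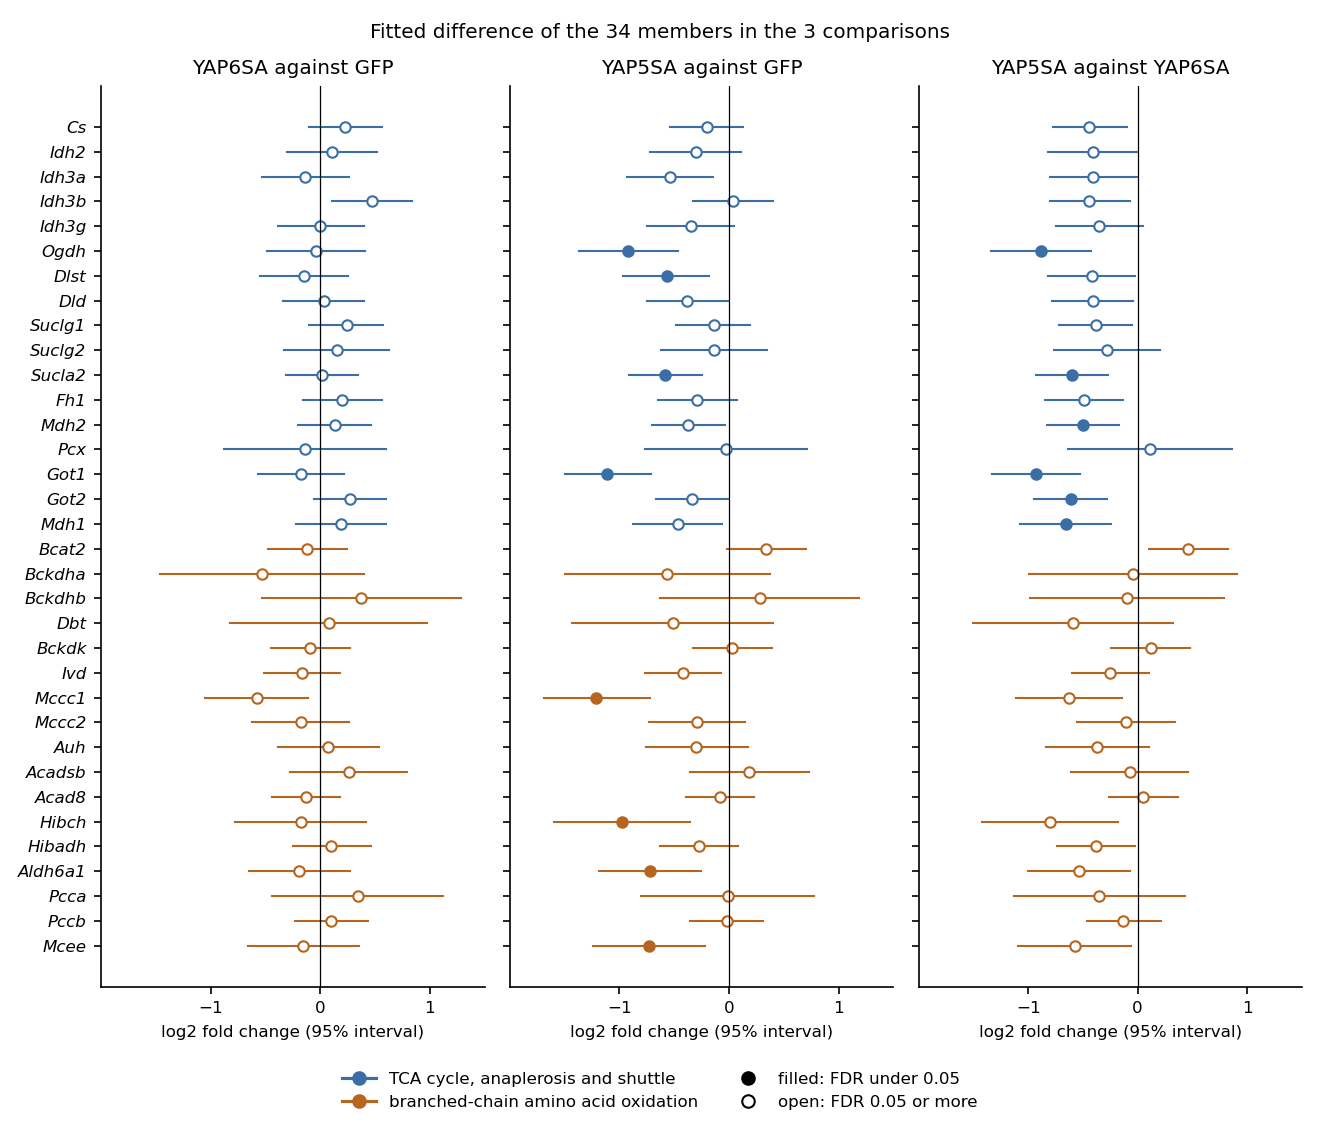
Fitted log2 fold change of the 34 members with its 95% interval in the 3 comparisons, blue for TCA and brown for BCAA members, with filled points at an FDR under 0.05. No point is filled for YAP6SA against GFP, 8 are filled for YAP5SA against GFP and 6 TCA points for YAP5SA against YAP6SA, all of them left of 0.

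All 8 members called in YAP5SA against GFP were lower than GFP in both batches, and each differed more in batch 2. In the same comparison 15 of 17 TCA members and 10 of 17 BCAA members were lower in both batches, beside 4928 of all 13323 genes. *Got1* passed the threshold against GFP in all 14 other fits run, and *Ogdh* and *Mccc1* in all but the fit without GFP replicate 2, where the FDR was 0.218 and 0.0601. Without the batch term the 4 TCA calls against GFP became 2 and the 4 BCAA calls became 1. Over all genes those lower went from 1223 to 759. The 6 TCA calls against YAP6SA became 2 without this term, where the genes lower over all genes went from 757 to 301. In some fits without 1 library most or all of these calls were lost, and without YAP5SA replicate 1 TCA calls were gained. The number of genes lower over all genes moved the same way in those fits.

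**Figure D4:**
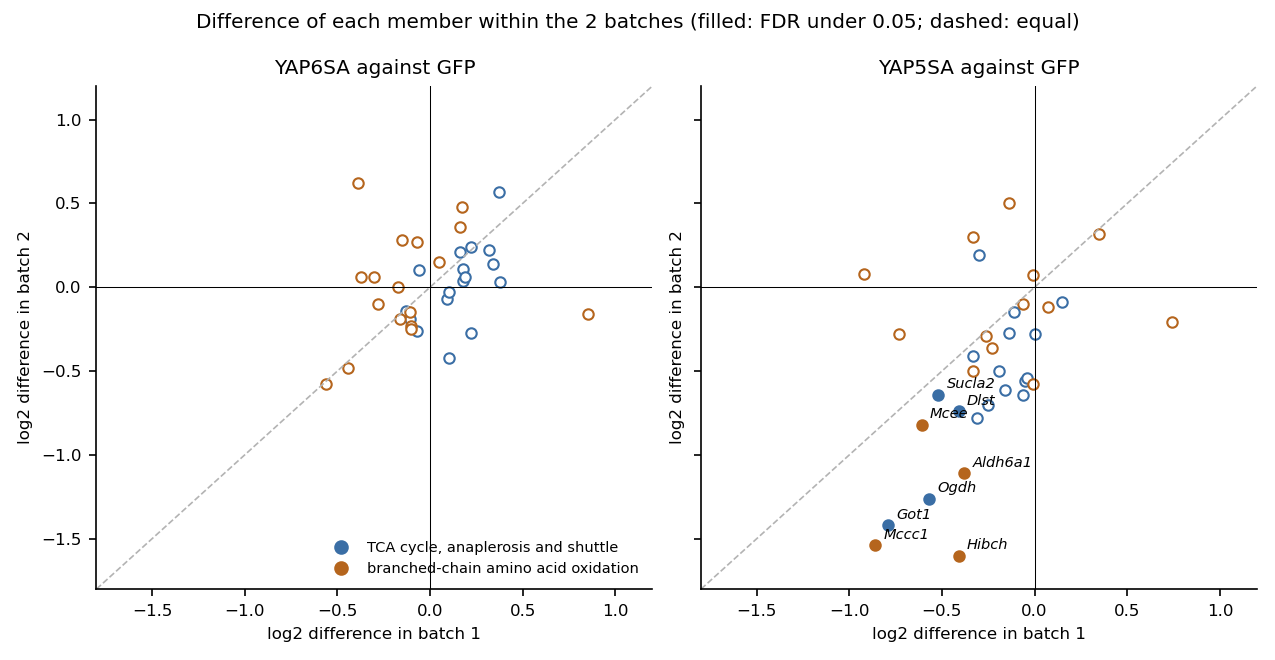
Log2 difference from GFP of each member within batch 1 (horizontal) and batch 2 (vertical), on the log2 (CPM + 0.5) scale, for YAP6SA and YAP5SA CMs, with filled and named points at an FDR under 0.05 and a dashed line where both batches are equal. The 8 named genes lie in the lower left corner and under the dashed line, *Hibch* farthest from it, at -0.41 and -1.60.

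Other genes of the 2 pathways were read from a list of 40, of which 37 passed the filter. Against GFP, 11 fell and 2 rose in YAP5SA CMs, where 9.18% of all genes fell and 12.8% rose. None changed in YAP6SA CMs against GFP (0 also at an unadjusted edgeR p of 0.05 and by the other tools). Against YAP6SA 12 fell and none rose in YAP5SA CMs, where 5.68% of all genes fell and 14.7% changed in either direction. In the cycle and beside it, the cytosolic isocitrate dehydrogenase *Idh1* fell by 1.03 on the log2 scale against GFP (FDR = 0.0124), the succinate dehydrogenase subunit *Sdhb* by 0.57 (FDR = 0.0306) and the 2-oxoglutarate dehydrogenase paralog *Ogdhl* by 0.66 (FDR = 0.0379). *Sdhd*, another succinate dehydrogenase subunit, passed against YAP6SA (-0.57, FDR = 0.0353) but not against GFP (-0.45, FDR = 0.0621).

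The carriers of the malate-aspartate shuttle moved beside *Got1*. The 2-oxoglutarate carrier *Slc25a11* had 246 and 252 CPM in GFP, 235 and 232 in YAP6SA, and 170 and 114 in YAP5SA CMs, and the aspartate-glutamate carrier *Slc25a12* had 221 and 228, 219 and 203, and 165 and 118 CPM. Neither YAP5SA range overlapped another group. *Slc25a11*, *Slc25a12* and the second aspartate-glutamate carrier *Slc25a13* fell by 0.83, 0.68 and 0.60 against GFP (FDR = 0.0119, 0.0189 and 0.0269) and by 0.73, 0.59 and 0.70 against YAP6SA (FDR = 0.0255, 0.0428 and 0.0192). The alanine aminotransferases *Gpt* and *Gpt2* fell by 1.03 and 1.01 against GFP (FDR = 0.00562 and 0.0132).

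Among the genes that rose against GFP was the cytosolic malic enzyme *Me1*, from 7.83 and 9.79 CPM in GFP to 15.0 and 18.6 in YAP5SA CMs (0.93 ± 0.25, FDR = 0.0249). For BCAA oxidation, the short-chain enoyl-CoA hydratase *Echs1*, which serves valine and fatty acid breakdown, fell by 0.78 (FDR = 0.00779), and *Ppm1k*, the phosphatase that activates the BCKDH complex, by 0.82 (FDR = 0.0426). *Klf15*, a transcription factor known to promote BCAA breakdown genes in the heart, was lower against YAP6SA (-0.63 ± 0.18, FDR = 0.0459) and did not pass against GFP (-0.42 ± 0.18, FDR = 0.125). The 12 calls against YAP6SA became 3 without the batch term, where the genes lower over all genes went from 757 to 301. In some fits without 1 library, part or all of these 12 calls and of the 13 against GFP were lost. The number of genes lower over all genes also fell in those fits.

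Fatty acid oxidation, a neighbouring pathway of the same mitochondria, was read from 22 genes for scale. In YAP5SA CMs 18 of them fell against GFP and none rose, where 9.18% of all genes fell and 12.8% rose. Their median log2 fold change was -0.92, beside -0.35 for the TCA and -0.29 for the BCAA members. In YAP6SA CMs none passed by edgeR or the other tools, with a median of -0.28. At an unadjusted edgeR p of 0.05, 1 was higher and 6 lower, beside 3.86% and 2.07% of all genes. Part of the 18 calls were lost when either GFP library was left out, and the number of genes lower over all genes also fell. The difference between the pathways was not tested.

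Promoter sequence was read for the members from the RefSeq table of windows of GRCm38.p6 that span 250 bases before and 50 after a transcription start. It holds 42 windows for 32 of the 34 members. The windows were searched on both strands for the letters AAGGTCA, bound by estrogen-related receptors, GGAATG, the core of TEAD sites, TGCGCA, part of the NRF1 site, and CACGTG, an E-box. AAGGTCA stood in 4.76% of the members' windows, 4.72% of all windows and 3.33% of the windows of genes that passed the filter. For GGAATG these shares were 7.14%, 14.7% and 12.4%. TGCGCA stood in 16.7% of the members' windows, 7.76% of all windows and 13.3% of the windows of genes that passed the filter, and CACGTG in 11.9%, 7.15% and 9.86%. Of the 5 member windows with CACGTG, 3 belong to *Ogdh*, and counted by gene the shares were 9.38% of the members, 8.09% of all genes and 11.8% of the genes that passed the filter. Among the 11 members called in a comparison, AAGGTCA was found for *Got1* and *Ogdh*, and GGAATG for *Aldh6a1* and *Mdh1*. TGCGCA was found for *Got2*, *Mdh2* and *Ogdh*, and CACGTG for *Ogdh*. Among the members not called, GGAATG stood in the window of *Pccb* and TGCGCA in windows of *Dld*, *Hibadh* and *Pccb*. CACGTG stood in windows of *Mccc2* and *Pcx*, which were not called either. The 4 windows of called members with AAGGTCA or GGAATG are shown, chosen because they hold these letters. They are given in lower case with the letters of all 4 searches in capitals, 5′ to 3′ on the strand of the gene. They lie at chr19:43524556-43524855 (*Got1*, minus strand), chr11:6291920-6292219 (*Ogdh*, plus strand, 1 of its 6 windows), chr12:84450975-84451274 (*Aldh6a1*, minus strand, 1 of its 2 windows) and chr11:21571885-21572184 (*Mdh1*, minus strand).
Got1: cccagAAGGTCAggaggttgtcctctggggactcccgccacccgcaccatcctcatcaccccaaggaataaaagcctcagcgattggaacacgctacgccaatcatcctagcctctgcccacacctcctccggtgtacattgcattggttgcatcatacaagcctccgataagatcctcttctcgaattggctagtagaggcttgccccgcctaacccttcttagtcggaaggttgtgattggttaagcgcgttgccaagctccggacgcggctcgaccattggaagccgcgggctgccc
Ogdh: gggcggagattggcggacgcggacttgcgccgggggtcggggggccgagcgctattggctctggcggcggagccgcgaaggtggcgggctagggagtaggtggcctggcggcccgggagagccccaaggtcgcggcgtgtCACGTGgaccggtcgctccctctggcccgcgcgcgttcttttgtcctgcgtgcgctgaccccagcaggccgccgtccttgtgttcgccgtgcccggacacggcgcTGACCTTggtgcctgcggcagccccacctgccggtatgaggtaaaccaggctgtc
Aldh6a1: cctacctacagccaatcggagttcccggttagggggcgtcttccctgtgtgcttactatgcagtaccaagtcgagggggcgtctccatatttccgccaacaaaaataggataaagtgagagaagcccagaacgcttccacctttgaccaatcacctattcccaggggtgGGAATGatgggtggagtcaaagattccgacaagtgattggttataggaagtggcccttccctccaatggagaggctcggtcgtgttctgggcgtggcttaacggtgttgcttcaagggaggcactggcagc
Mdh1: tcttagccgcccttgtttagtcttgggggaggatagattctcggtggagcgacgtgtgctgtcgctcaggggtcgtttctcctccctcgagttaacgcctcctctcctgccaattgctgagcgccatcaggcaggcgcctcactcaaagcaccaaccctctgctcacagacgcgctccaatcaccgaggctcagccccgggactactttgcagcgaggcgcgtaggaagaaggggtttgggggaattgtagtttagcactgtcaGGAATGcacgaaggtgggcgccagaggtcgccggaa

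In these windows AAGGTCA begins at base 6 for *Got1* and stands as its reverse complement TGACCTT at base 246 for *Ogdh*, across the start, beside a CACGTG at base 141. GGAATG begins at base 170 for *Aldh6a1* and at base 265, past the start, for *Mdh1*. *Got1* and *Ogdh* fell in YAP5SA CMs against both other groups, *Aldh6a1* against GFP and *Mdh1* against YAP6SA. A match of letters is a description of the sequence and no measure of binding.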

How the data were processed

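RNA of PCM-1-captured CM nuclei was sequenced from poly-A, non-directional libraries, 2 for each of GFP, YAP6SA and YAP5SA. STAR alignments to mm10 (GRCm38), made by the authors, were deposited as raw counts per gene without normalisation. Reads outside genes, shared by overlapping genes, mapping to several places or unmapped, 22.0% to 23.4% of a library, were left out of gene counts and library sizes. Names and coordinates came from GENCODE M21 (GRCm38), which named 54409 of the 54532 genes. Depth was 14552847 to 19615627 gene counts a library, so a floor of 3 counts was 0.153 to 0.206 CPM, for counting error alone.

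Genes with a median log2 CPM above 1 in at least 1 group were kept, 13323 in all. The counts were fitted with edgeR 4.0.16 in R 4.3.3 (TMM, quasi-likelihood test) on all 6 libraries with terms for group and batch, and FDR stands for the p adjusted by Benjamini-Hochberg across the genes kept (threshold 0.05). CPM is given per 1000000 counts of the TMM-scaled library size, and ± with a fold change is the standard error. The labels give the replicate number as the batch. Libraries of a batch deviated from their group means partly together, with a correlation across genes of 0.394 for GFP with YAP6SA. The correlation was weaker for the pairs with YAP5SA, at 0.107 for GFP and 0.180 for YAP6SA. The fit was also run on counts simulated without a batch effect, so that run does not check it for batched libraries such as these. DESeq2 1.42.0, limma-voom (limma 3.58.1), edgeR's likelihood ratio test, other scaling, filters and thresholds, no batch term, 4-library fits and fits without each library were alternatives.

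The members, lists and tests were chosen with earlier results of these data known. All 34 members are named. Values in every library are given for members past the threshold in a comparison and for the 3 with the smallest p in YAP6SA against GFP, and also for *Bcat2*, chosen after its values were seen. Of the other pathway genes, those past the threshold are named, except some that are counted but not reported here by name. Promoters are RefSeq windows of GRCm38.p6.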

Additional observations from a re-analysis of the deposited data

How the results depend on the processing

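Each group has 2 libraries, and depth is lowest for *Pcx*, *Pcca*, *Bckdha*, *Bckdhb* and *Dbt*, which have at most 173 counts a library. Where a library was left out, its group's lone library was assumed to vary like the others. No result changed direction in a fit that kept all 6 libraries. Calls of single members survived unevenly over the 14 other fits. Against GFP, *Got1* passed in 14, *Ogdh* and *Mccc1* in 13, *Hibch* in 11, *Aldh6a1* and *Sucla2* in 10, *Dlst* in 7 and *Mcee* in 6. Against YAP6SA, *Got1* passed in 13, *Ogdh* in 12, *Got2* and *Sucla2* in 10, *Mdh1* in 7 and *Mdh2* in 5. The causes were not tested, beyond the smaller number of libraries.

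The replicate block, which pairs the libraries of a batch, mattered for the counts. Without it, the calls in YAP5SA against GFP became 2 TCA and 1 BCAA members, and those against YAP6SA became 2 TCA members, 3 other pathway genes and 5 fatty acid oxidation genes, while the BCAA median in YAP5SA against GFP went from -0.29 to -0.27. Leaving it out moved no other count of members or listed genes past the threshold by over 1.5 times. Over all genes, leaving it out took those higher in YAP6SA against GFP from 6 to 0, and those lower in YAP5SA from 1223 to 759 against GFP and from 757 to 301 against YAP6SA. At an unadjusted p of 0.05, fatty acid oxidation genes lower in YAP6SA CMs went from 6 to 1, and TCA members higher from 1 to 0.

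Fitting only the 4 libraries compared gave 1 TCA member, 1 BCAA member and 3 fatty acid oxidation genes in YAP6SA against GFP, where over all genes it called 198 higher and 78 lower in place of 6 and 0, and 7 other pathway genes in YAP5SA against YAP6SA. Against YAP6SA, BCAA members called in YAP5SA CMs were 3 with no filter and 1 with the likelihood ratio test. No filter, the likelihood ratio test and DESeq2 called 109, 54 and 40 genes higher and 36, 28 and 15 lower in YAP6SA against GFP, none of them a member. At a threshold of 0.01, YAP5SA against GFP kept 1 TCA, 1 BCAA and 2 other pathway calls, and YAP5SA against YAP6SA kept 1 TCA, 0 other pathway and 3 fatty acid oxidation calls. At 0.1 there were 7 TCA calls in YAP5SA against GFP and 3 BCAA calls in YAP5SA against YAP6SA.

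Leaving out each library in turn, TCA calls ran from 1 to 10 in YAP5SA against GFP and from 0 to 15 in YAP5SA against YAP6SA, and BCAA calls from 0 to 4 in each. Other pathway calls ran from 0 to 15 and from 0 to 17, and fatty acid oxidation calls from 6 to 18 and from 1 to 18, with 0 to 2 in YAP6SA against GFP. The TCA median ran from -0.01 (without GFP replicate 1) to 0.20 in YAP6SA against GFP and from -0.60 to -0.28 in YAP5SA against YAP6SA. The BCAA median ran from -0.18 to 0.07 (the latter without YAP6SA replicate 1), from -0.34 to -0.17 in YAP5SA against GFP and from -0.33 to -0.18 in YAP5SA against YAP6SA.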
